A study of Mus musculus with 16 samples.

Results

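The comparison described here set the pancreas of Adam17ex/ex mice against that of wild-type (WT) mice after cerulein injection. Its members were the libraries whose titles give cerulein as treatment, 4 per genotype, which made 8 of the 16 libraries of the series, and all genes in them. Adam17ex/ex, written Adam17ex below, is homozygous for a hypomorphic allele of Adam17, so some protease activity may remain. Per the labels' protocols the animals were littermates on C57BL/6J aged 6 to 8 weeks, kept free of specific pathogens. Each of the mice compared received 7 injections of cerulein into the peritoneum, 1 per hour at 50 µg per kg, and was culled 1 h after the last. The remaining 8 mice, 4 per genotype, received phosphate-buffered saline (PBS) on the same schedule and give the background without pancreatitis. The alleles are carried in every cell of the body, so the comparison does not separate pancreas from blood or other organs. The labels give 1 male among the WT cerulein mice (replicate 1) and 2 among the Adam17ex cerulein mice (replicates 2 and 3), and sex was a term in the model. The numeric codes in the labels of the WT cerulein mice all lie below those of the Adam17ex cerulein mice. What they stand for is not stated, and anything they mark cannot be told apart from genotype.

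ADAM17 is a membrane-anchored metalloprotease that releases the outer part of surface proteins. Its substrates include the precursors of ligands of the epidermal growth factor (EGF) receptor, such as HB-EGF, as well as tumour necrosis factor and the interleukin-6 receptor. Cerulein is an analogue of cholecystokinin. At high dose it drives calcium release in acinar cells, the cells that make digestive enzymes, blocks secretion and activates enzymes inside the cell. Injured acinar cells lose enzyme expression and gain features of duct cells, a change called acinar-to-ductal metaplasia, in which keratin 19 (Krt19) and Sox9 rise. Since acinar cells translate enzyme mRNAs at a high rate, they depend on the chaperones of the endoplasmic reticulum (ER) and on the unfolded protein response.

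RNA was counted by molecular barcodes (UMIs) from reads primed at the poly(A) tail. The 8 cerulein libraries held 865236 to 1476159 UMIs, so that 1 UMI was worth 0.677 to 1.16 CPM, the unit that scales every library to one common total. Values below are CPM adjusted by edgeR's TMM factors, listed in the order of replicates 1 to 4, and SDs are over n = 4. Differences are log2 fold changes, Adam17ex minus WT, with their standard errors (SE). A gene was called where the Benjamini-Hochberg adjusted p of edgeR's quasi-likelihood test over all tested genes was under 0.05. In whole tissue, fewer cells of a type and less RNA per cell cannot be told apart. On the first principal component of the 8 libraries, which held 39% of their variance, WT lay at -30.5 to -24.3 and Adam17ex at 20.5 to 32.9. A list of 30 digestive enzymes took 31.1% ± 2.35 of the UMIs in WT and 36.7% ± 1.66 in Adam17ex (SD, n = 4), which did not overlap. The exact two-sided permutation p was 0.0286, the smallest that 4 against 4 allows, and 0.143 after adjustment over 5 library measures. The other 4 measures, namely depth, genes detected and the shares of mitochondrial and ribosomal RNA, gave exact permutation p of 0.171 to 0.714.

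Adam17 itself (GRCm38 chr12:21323509-21373632) was at 15.4, 11.1, 19.3 and 11.6 CPM in WT and at 3.16, 3.55, 2.40 and 4.09 CPM in Adam17ex. The groups did not overlap, and the log2 fold change was -2.05 ± 0.40 (SE, adjusted p = 0.00138). Reads near the poly(A) tail do not by themselves show which allele is present. These levels rest on a total of 68 UMIs in the WT and 15 in the Adam17ex libraries. Of 9 tested proteases and partners of the ADAM family, Adam17 was the only one called.

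Of 8236 genes tested, 799 (9.70%) differed between the genotypes under cerulein. In Adam17ex 482 (5.85%) were higher and 317 (3.85%) lower, and the median over all tested genes was 0.01. Among called genes, 269 were at least 2-fold higher and 190 at least 2-fold lower, 43 and 32 at least 4-fold, and 8 and 10 at least 8-fold. The libraries of the genotypes did not overlap in 427 of the genes called higher and in 283 of those called lower. Over all tested genes, called or not, the share without overlap was 17.6%, with 9.64% in the higher and 7.92% in the lower direction. WT replicate 1, the only male of its group, weighed most on the count. Without it 402 genes were called, of which 384 were among the 799, and without any other single library 549 to 675 were called. None of the genes shared with those fits changed sign. Leaving out WT replicate 1 also leaves no male among the WT cerulein libraries. With the sex term taken out of that fit, a setting chosen after seeing the data, 568 genes were called. The part of the sex term in the drop to 402, and in calls lost without WT replicate 1, was not tested.

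**Figure D1:**
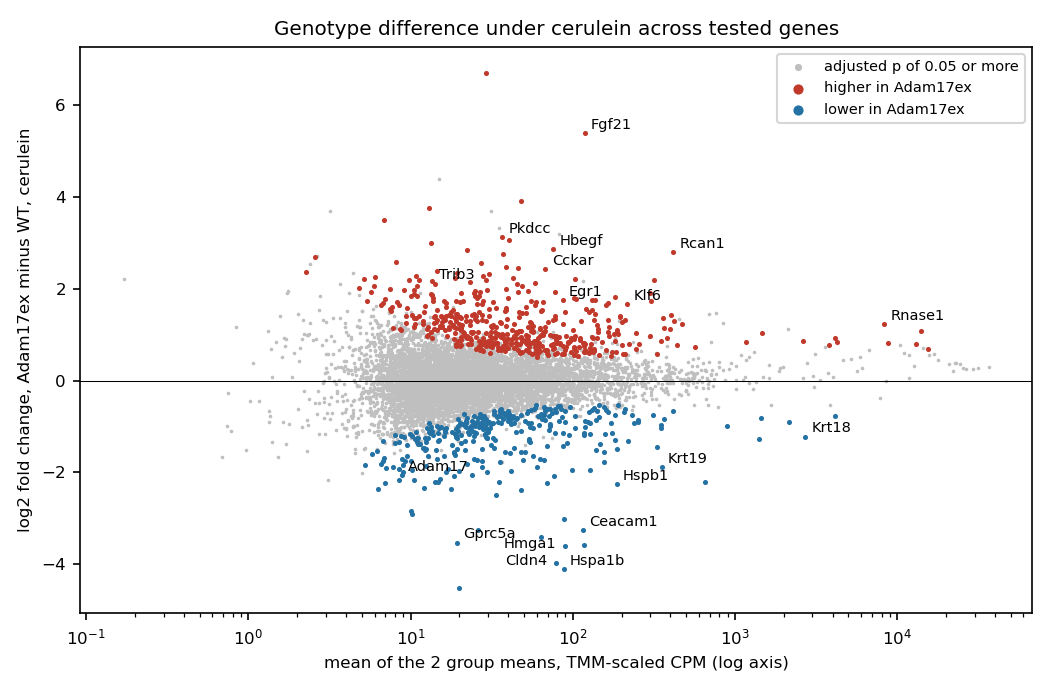
Each point is a tested gene, with its mean level on a log axis (TMM-scaled CPM) and its log2 fold change, Adam17ex minus WT, under cerulein. Coloured points are the 482 genes called higher and the 317 called lower, and the labels mark genes described in the text.

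Many heat shock chaperones were lower in Adam17ex. These proteins hold or refold unfolded proteins, most of them in the cytosol and some in mitochondria, and several are induced by the factor HSF1, which binds heat shock elements made of inverted repeats of GAA. Of 28 tested members 12 fell and 1 rose, where 3.85% of all genes fell and 5.85% rose. Their median was -0.57 against 0.01 over all genes. The inducible Hsp70 genes Hspa1b and Hspa1a lie side by side on chromosome 17, are near-identical copies that can share reads, and had the lowest values. Hspa1b was at 83.2, 188, 208 and 187 CPM in WT and at 7.38, 5.33, 12 and 8.86 in Adam17ex (log2 fold change -4.11 ± 0.31, adjusted p = 4.75e-09). The PBS means were 5 in WT and 8.59 in Adam17ex, so the WT cerulein libraries stood apart from the other 3 groups. The small heat shock protein Hspb1 was at 275, 319, 355 and 291 CPM in WT and at 58.0, 60.4, 72.0 and 64.7 in Adam17ex, again without overlap. Its change was -2.25 ± 0.22 (adjusted p = 2.31e-07), and here Adam17ex stayed above its own PBS mean of 19.5 ± 6.47 CPM. Hsph1, which recharges Hsp70 with nucleotide, was at 102, 140, 143 and 71.9 CPM in WT and at 22.2, 22.2, 27.6 and 26.6 in Adam17ex (-2.22 ± 0.24). The co-chaperones Dnajb1 and Dnaja1 fell by 1.56 and 1.32, the lens chaperone Cryab by 1.82 and the inducible Hsp90 gene Hsp90aa1 by 0.98 on the log2 scale. Hspa4l, a relative of Hsph1, was the member that rose, from 45.5 ± 14.5 CPM in WT to 134 ± 24.4 in Adam17ex (1.49 ± 0.23).

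A heat shock element with 3 intact repeats, GAANNTTCNNGAA, was searched on both strands of the RefSeq promoters (build GRCm38.p6, 250 bases before to 50 after each start). It is in 0.662% of 27025 genes with a promoter, in 7 of 234 genes called lower (2.99%), in 0 of 359 called higher, and in 0.67% of the tested genes. Of the 9 chaperones called lower that have an entry, 3 hold it (Hspd1, Hspe1 and, after its start, Hsph1), as does 1 of the 12 not called. Hspd1 and Hspe1 encode the mitochondrial chaperonin and its lid, are transcribed away from each other, and share the stretch chr1:55088039-55088096. It is shown from the minus strand for Hspd1 and from the plus strand for Hspe1, with the repeats of 2 overlapping matches in capitals.
Hspd1: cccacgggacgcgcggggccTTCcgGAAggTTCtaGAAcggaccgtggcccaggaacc
Hspe1: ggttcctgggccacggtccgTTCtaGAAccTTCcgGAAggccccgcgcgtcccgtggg
Hspd1 was at 204, 194, 183 and 137 CPM in WT and at 99.2, 92.4, 94.8 and 108 in Adam17ex (-0.86 ± 0.19, adjusted p = 0.00385). Hspe1 was at 85.9, 96.4, 85.2 and 66.1 CPM in WT and at 40.1, 51.5, 54.0 and 52.4 in Adam17ex (-0.75 ± 0.22, adjusted p = 0.0284). Both genes were lower in every Adam17ex library than in any WT library. Without WT replicate 1 the adjusted p of Hspd1 was 0.0569, and Hspe1 lost its call in 6 of the 8 fits that left out 1 library (adjusted p 0.0528 to 0.11 there). A match describes the letters of the promoter and does not show that a factor bound there.

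Keratins and surface proteins of duct-like epithelium were lower in Adam17ex than in WT. Simple keratins form the intermediate filaments of these cells, and 6 of 7 tested members fell, against 3.85% of all genes. Their median was -1.46, with all 7 below 0. Krt19, the duct keratin, was at 552, 601, 433 and 631 CPM in WT and at 184, 166, 131 and 123 in Adam17ex. Its change was -1.89 ± 0.19 (adjusted p = 6.62e-07), and both genotypes lay above their PBS means of 51.0 ± 8.33 and 58.7 ± 13.9 CPM. Krt18 was at 3240, 4770, 3310 and 3890 CPM in WT and at 1730, 1760, 1290 and 1640 in Adam17ex (-1.22 ± 0.18). Its filament partner Krt8 fell less, by 0.78 ± 0.20 on the log2 scale, and Krt7 fell by 1.56 ± 0.28. Krt23 was low in both groups, at 25.3, 8.86, 7.88 and 6.61 CPM in WT and at 2.11, 4.44, 3.60 and 3.41 in Adam17ex, and its call was lost without WT replicate 1 (-1.14, adjusted p = 0.214).

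Among 16 tested genes of the epithelial surface and of duct cells 7 fell and 1 rose, with a median of -0.61. Of all genes 3.85% fell and 5.85% rose. Ceacam1, an adhesion receptor of the immunoglobulin family, was at 292, 198, 160 and 185 CPM in WT and at 21.1, 26.7, 21.6 and 22.5 in Adam17ex. The Adam17ex cerulein libraries were at the level of the PBS groups (27.2 ± 3.30 and 29.3 ± 7.57 CPM), and the change was -3.26 ± 0.18 (adjusted p = 4.39e-11). The neighbouring copy Ceacam2 can share its reads. Slc26a9, a chloride channel of epithelia, was at 132, 172, 165 and 158 CPM in WT and at 15.8, 21.3, 14.4 and 22.5 in Adam17ex (-3.02 ± 0.26). The orphan receptor Gprc5a was at 55.2, 35.4, 41.5 and 9.92 CPM in WT and at 0, 2.67, 3.60 and 5.45 in Adam17ex, which is close to the counting limit there. Osteopontin (Spp1) was at 247 ± 82.9 CPM in WT and 66.5 ± 22.6 in Adam17ex, and ezrin (Ezr), which ties the membrane to actin, at 63.9 ± 15.9 and 32.0 ± 8.83. Muc1, a mucin also found on acinar cells, was the member that rose, by 0.82 ± 0.23, and lost its call in several fits, for example without WT replicate 1 (adjusted p = 0.098). Its call was also lost without WT replicates 2 or 3 (0.0639 and 0.0718) and without Adam17ex replicates 2 or 3 (0.062 and 0.0698).

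**Figure D2:**
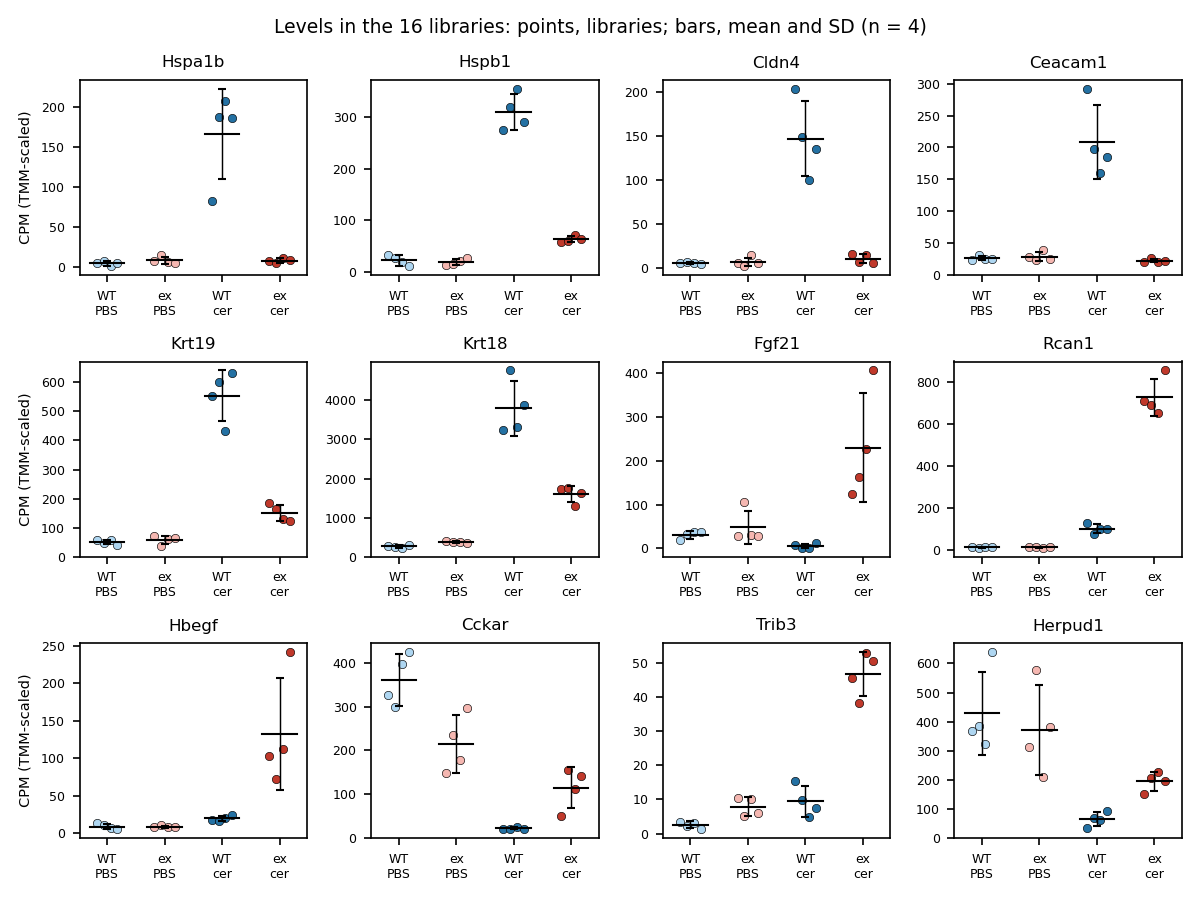
Levels of 12 genes in TMM-scaled CPM on linear axes, with one point per library, and mean and SD of the 4 libraries of each group. WT and Adam17ex (ex) are shown after PBS and after cerulein (cer). Hspa1b, Cldn4 and Ceacam1 are high in WT cerulein alone of the 4 groups, whereas Fgf21, Rcan1, Hbegf and Trib3 are highest in Adam17ex cerulein.

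Some junction and cytoskeletal genes were lower. Of 23 tested junction genes 5 fell, 1 rose and 17 were not called, with 3.85% of all genes called lower, and the median was -0.18. The tight junction protein Cldn4 was at 203, 148, 100 and 135 CPM in WT and at 15.8, 6.22, 14.4 and 5.45 in Adam17ex (-3.98 ± 0.28, adjusted p = 2.27e-09). PBS means were 5.68 and 6.72 CPM, so Cldn4 in Adam17ex after cerulein overlapped the PBS range. Its relatives Cldn3 and Cldn7 fell less, by 1.37 and 1.17 on the log2 scale, and the adhesion molecule Epcam fell by 1.16. Desmoplakin (Dsp), which anchors keratin filaments in desmosomes, rose from 128, 110, 102 and 141 CPM in WT to 340, 239, 220 and 211 in Adam17ex (1.07 ± 0.18, adjusted p = 0.00035). A desmosome protein thus went against the keratins it binds. Of 25 actin cytoskeleton genes 7 fell, none rose and 18 were not called, with a median of -0.50, and 4 were lower without WT replicate 1. Cytoplasmic actin Actg1 was at 2360, 1910, 1530 and 2150 CPM in WT and at 985, 635, 683 and 984 in Adam17ex (-1.27 ± 0.22). The focal adhesion protein Zyx was at 161 ± 19.4 and 72.7 ± 9.20 CPM. Beta-tubulin Tubb5 fell by 1.36 ± 0.26 and annexin Anxa2, which links membrane and actin, by 1.30 ± 0.22. S100g, a calcium-binding protein, rose from 16.3, 57.6, 63.0 and 22.3 CPM in WT to 96.0, 140, 198 and 238 in Adam17ex (2.21 ± 0.33).

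Several regulators were among the genes most reduced in Adam17ex. Hmga1, a chromatin protein of growing and injured epithelia, was at 182, 156, 132 and 190 CPM in WT and at 14.8, 11.6, 15.6 and 13.6 in Adam17ex (-3.61 ± 0.29, adjusted p = 1.49e-08), and its copy Hmga1b can share its reads. Gadd45g, a growth arrest gene, was at 44.3, 55.4, 50.9 and 84.3 CPM in WT and at 10.5, 12.4, 9.60 and 13.6 in Adam17ex (-2.20 ± 0.27). Nfatc1, a transcription factor that calcineurin sends to the nucleus, was at 58.8, 77.5, 74.5 and 98.4 CPM in WT and at 23.2, 16, 14.4 and 31.3 in Adam17ex (-1.73 ± 0.22, adjusted p = 1.13e-05). None of these groups overlapped. The cyclin-dependent kinase inhibitor Cdkn1c, at 9.04, 24.4, 38.0 and 11.6 CPM in WT and 8.44, 2.67, 0 and 2.72 in Adam17ex, came close to overlap in 1 library of each group. The neuronal pentraxin Nptx2, the small GTPase Rasl10a and the gene Nrip3 fell by 2.36, 2.85 and 2.90 on the log2 scale from WT means of 29.4, 17.8 and 18.0 CPM, and without WT replicate 1 the adjusted p of Nrip3 was 0.0519. Irf1, a factor induced by interferon, was at 24 ± 8.42 CPM in WT and 6.19 ± 3.30 in Adam17ex (-2.14 ± 0.45, adjusted p = 0.00269). It was the only one of 13 tested interferon and MHC class I genes to be called.

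Autophagy and lysosome genes split. Of 26 tested 5 fell and 1 rose, where 3.85% of all genes fell and 5.85% rose, and the median was -0.02. Map1lc3a, a coat protein of autophagosomes, was at 195, 222, 208 and 195 CPM in WT and at 40.1, 31.1, 39.6 and 87.9 in Adam17ex (-1.95 ± 0.25, adjusted p = 1.29e-05). The cargo receptor Sqstm1 was at 477 ± 108 and 257 ± 58.2 CPM, and the lysosomal protease Ctsl at 1860 ± 260 and 1020 ± 205. With any single library left out, 3 or 4 members were called lower. Map1lc3a had its lowest WT value at 195 CPM, more than its highest Adam17ex value of 87.9.

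ER quality control genes were higher in Adam17ex. Proteins of this group fold new secretory proteins or retrieve misfolded ones for degradation (ERAD), under the sensors IRE1 (Ern1), PERK (Eif2ak3) and ATF6. Of 31 tested members 14 rose (45.2%, against 5.85% of all genes) and none fell, with a median of 0.57. Under PBS none of the 31 rose and 3 fell. The mean log2 of CPM plus 1 over the list was 5.92 to 6.44 in WT and 6.81 to 7.02 in Adam17ex under cerulein. Under PBS it was 7.51 to 7.81 in WT and 6.87 to 7.40 in Adam17ex, so the list was not raised above PBS in either genotype. Summed levels under cerulein, in CPM without TMM scaling, overlapped at 5140 to 6870 in WT and 6450 to 7340 in Adam17ex. Without WT replicate 1 the number higher under cerulein was 6, without WT replicate 3 it was 9, and without Adam17ex replicate 4 it was 8. The ERAD scaffold gene Herpud1 was at 36.2, 69.8, 63.8 and 93.4 CPM in WT and at 152, 207, 229 and 197 in Adam17ex (1.75 ± 0.29, adjusted p = 0.000262). Both were under the PBS means of 428 ± 143 and 371 ± 155 CPM. The oxidase Ero1lb was at 68.7, 69.8, 78.1 and 86.0 CPM in WT and at 149, 222, 246 and 166 in Adam17ex (1.32 ± 0.24), and the mannosidase-like ERAD gene Edem1 rose by 1.23 ± 0.24. The sensor Ern1 was at 10.9, 4.43, 13.6 and 11.6 CPM in WT and at 23.2, 32.0, 25.2 and 29.3 in Adam17ex (1.36 ± 0.27). Eif2ak3, the sensor PERK, was at 92.3, 84.2, 101 and 81.8 CPM in WT and at 210, 200, 196 and 173 in Adam17ex (1.13 ± 0.18, adjusted p = 0.000182). By contrast Hspa5, the most abundant ER chaperone, was at 594, 947, 980 and 862 CPM in WT and at 1170, 1150, 833 and 824 in Adam17ex, and the groups overlapped (0.25 ± 0.28, adjusted p = 0.632).

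The ER stress element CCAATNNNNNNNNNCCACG, read on both strands, is in 0.137% of all RefSeq promoters, in 0.184% of the tested genes and in 9 of 25 tested ER genes that have an entry. It is in 3 of the 10 called higher and in 6 of the 15 not called. A pair of windows on the plus strand is shown, with the element in capitals, for Pdia6 (chr12:17266471-17266529), which was called, and for Hspa5 (chr2:34772005-34772063), which was not.
Pdia6: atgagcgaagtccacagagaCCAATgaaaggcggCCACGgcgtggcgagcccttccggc
Hspa5: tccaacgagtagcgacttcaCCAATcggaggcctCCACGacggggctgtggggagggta
Pdia6, a disulphide isomerase, was at 77.8, 135, 125 and 110 CPM in WT and at 185, 200, 182 and 193 in Adam17ex (0.85 ± 0.17, adjusted p = 0.0018). Its libraries did not overlap between the genotypes, unlike those of Hspa5.

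Some genes of translocation into the ER and of transport to the Golgi were higher as well. Of 43 tested 10 rose (23.3%, against 5.85% of all genes) and none fell, with a median of 0.37 and 41 values above 0. The count was 3 without WT replicate 1 or Adam17ex replicate 2, 4 without WT replicate 3, 5 without WT replicate 4 and 6 without WT replicate 2, and a count of 3 is close to the share of all genes. Sec24d, a subunit of the COPII coat that buds from the ER, was at 8.14, 12.2, 10.7 and 15.7 CPM in WT and at 38.0, 50.7, 42.0 and 28.6 in Adam17ex (1.68 ± 0.32, adjusted p = 0.00124). Srp9, part of the particle that brings ribosomes to the ER, was at 93.7 ± 16.6 and 173 ± 15.1 CPM (0.92 ± 0.17). Neither gene overlapped between genotypes. In both genes the WT cerulein mean was the lowest of the 4 groups.

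Many genes of the integrated stress response rose in Adam17ex. In this pathway kinases such as PERK slow translation, and the factor ATF4 then induces genes of amino acid metabolism, of redox control and of feedback on the pathway. Of 25 tested members 13 rose (52%, against 5.85% of all genes) and none fell, with a median of 0.79. The summed level of the list, to which abundant members add most, went the other way. In CPM without TMM scaling it was 12500, 13600, 11300 and 11400 in WT and 9120, 9160, 8340 and 10500 in Adam17ex under cerulein. From 10 to 13 were called whichever library was left out. Under PBS 0 rose and 1 fell. Atf4 was at 254, 225, 258 and 241 CPM in WT and at 584, 630, 541 and 428 in Adam17ex (1.12 ± 0.20, adjusted p = 0.00083). The pseudokinase Trib3, which restrains ATF4, was at 15.4, 9.97, 5.01 and 7.44 CPM in WT and at 45.4, 38.2, 52.8 and 50.4 in Adam17ex (2.27 ± 0.27, adjusted p = 8.18e-06). Cth, which makes cysteine, was at 10.9, 14.4, 13.6 and 7.44 CPM in WT and at 41.1, 42.7, 61.2 and 45.0 in Adam17ex (1.97 ± 0.28). None of these groups overlapped. The glutathione-degrading enzyme Chac1 rose by 1.78 ± 0.35, the stress sensor Sesn2 by 1.81 ± 0.36, the cystine transporter Slc7a11 by 1.27 ± 0.27 and the factor Cebpb by 1.07 ± 0.21. Ppp1r15a, which reverses the translational block, rose by 1.72 ± 0.34, but its Adam17ex values of 96.0, 20.4, 33.6 and 43.6 CPM reached down into the WT values of 18.1, 15.5, 7.16 and 21.5. Asparagine synthetase (Asns), another known ATF4 target, was at 684 ± 67.2 CPM in WT and 589 ± 123 in Adam17ex (-0.17 ± 0.19, adjusted p = 0.648). Of 27 genes for tRNA synthetases and amino acid supply 3 rose (11.1%), and the transporter Slc38a2 had the largest change, from 66.2 ± 11.7 to 185 ± 31.1 CPM (1.5 ± 0.21).

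Fgf21, a secreted hormone that acinar cells release and that promotes enzyme secretion, had the highest log2 fold change among genes with an official symbol and enough counts. It was at 7.24, 2.22, 2.15 and 11.6 CPM in WT and at 124, 164, 227 and 407 in Adam17ex (5.40 ± 0.47, adjusted p = 5.96e-08). PBS means were 31.6 ± 8.80 CPM in WT and 48.2 ± 38.4 in Adam17ex, so the 2 genotypes lay on opposite sides of their PBS levels. The composite element for ATF4 with C/EBP partners, TGATGNAAT on either strand, is in 1.08% of RefSeq promoters and in 0.603% of the tested genes. It is in 8 of 359 genes called higher (2.23%) and in 1 of 234 called lower. Among list members with an entry it is in 2 of 15 called higher and in 4 of 26 not called. Both called genes lie on the minus strand, Fgf21 with the window chr7:45615602-45615650 and Pycr1, which makes proline, with chr11:120643823-120643871. Capitals mark the element, which is on opposite strands relative to the direction of transcription.
Fgf21: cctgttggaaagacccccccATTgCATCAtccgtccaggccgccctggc
Pycr1: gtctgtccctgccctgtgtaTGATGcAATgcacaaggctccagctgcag
Pycr1 was at 31.7, 53.2, 32.2 and 42.2 CPM in WT and at 67.5, 47.1, 62.4 and 79.0 in Adam17ex, which overlap in 1 library of each group (0.79 ± 0.19, adjusted p = 0.0088). Its call was lost without WT replicate 1 (0.76, adjusted p = 0.0603), WT replicate 3 (0.65, adjusted p = 0.0518) or Adam17ex replicate 4 (0.72, adjusted p = 0.055).

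Immediate early genes, which growth factor and stress kinases switch on within minutes, were higher in Adam17ex. Of 25 tested 10 rose (40%, against 5.85% of all genes) and none fell, with a median of 0.73. Whichever library was left out, 8 or 9 rose. Egr1 was at 45.2, 35.4, 35.8 and 42.2 CPM in WT and at 192, 126, 106 and 112 in Adam17ex (1.76 ± 0.25, adjusted p = 5.95e-05). Klf6 was at 101, 68.7, 96.7 and 165 CPM in WT and at 459, 216, 246 and 376 in Adam17ex (1.66 ± 0.23, adjusted p = 3.16e-05). Neither overlapped, and replicate 1 was the highest Adam17ex library for both. Fos was also highest in Adam17ex replicate 1, with 4.40 ± 1.47 CPM in WT and 30.6, 8.00, 12 and 15.7 in Adam17ex, and lost its call without Adam17ex replicate 1 (1.38, adjusted p = 0.0925). Csrnp1 and Ier2 rose by 2.23 ± 0.36 and 1.42 ± 0.24. Of 8 tested feedback genes of the MAP kinases 3 rose, 1 fell and 4 were not called, with a median of 0.06. The risers were phosphatases, Dusp8 from 5.29 ± 3.23 to 39.2 ± 7.84 CPM (2.84 ± 0.38) and Dusp1 from 9.08 ± 3.75 to 32.0 ± 13.6 (1.91 ± 0.36). The third, Dusp16, rose by 0.83 and lost its call in 4 of the 8 fits that left out 1 library. Errfi1, an inhibitor of the EGF receptor kinase that is induced by EGF signalling, went the other way, from 86.8, 66.5, 60.9 and 99.2 CPM in WT to 40.1, 22.2, 22.8 and 36.8 in Adam17ex (-1.33 ± 0.24, adjusted p = 0.000908).

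Of the EGF receptor and its ligands, 4 genes were tested and 2 rose. Hbegf, whose membrane-bound product ADAM17 can release, was at 17.2, 16.6, 20.8 and 24 CPM in WT and at 103, 72.0, 112 and 242 in Adam17ex (2.86 ± 0.27, adjusted p = 1.89e-07). Egf was at 13.6, 7.75, 10.7 and 29.8 CPM in WT and at 42.2, 40.0, 43.2 and 32.0 in Adam17ex (1.33 ± 0.29). Both were without overlap, although WT replicate 4 came near the lowest Adam17ex library for Egf. The receptor Egfr was at 55.2, 33.2, 64.5 and 64.5 CPM in WT and at 46.4, 56.0, 55.2 and 42.2 in Adam17ex, with overlap (-0.17 ± 0.22, adjusted p = 0.698). A separate list of ADAM17 substrates, which does not hold Hbegf, had 16 tested genes. In that list the heparan sulphate carrier Sdc1 was the only one called, at 168 ± 44.6 CPM in WT and 94.4 ± 32.7 in Adam17ex (-0.64 ± 0.15, adjusted p = 0.00733), with overlapping libraries. These are RNA levels and do not report shedding.

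In the interleukin-6 and STAT group 4 of 17 tested genes rose and 1 fell, where 5.85% of all genes rose and 3.85% fell. The feedback inhibitors Socs2 and Cish, which cytokine receptors induce through STAT5, rose, Socs2 from 56.1, 62.0, 89.5 and 54.6 CPM in WT to 174, 235, 161 and 257 in Adam17ex (1.76 ± 0.23, adjusted p = 2.63e-05). Cish was at 15.5 ± 1.18 and 36.2 ± 11.6 CPM (1.30 ± 0.26). Socs3, the inhibitor induced by STAT3, was at 27.1, 17.7, 27.9 and 42.2 CPM in WT and at 12.7, 11.6, 22.8 and 17.0 in Adam17ex, with overlap and no call (-0.92 ± 0.32, adjusted p = 0.0756). Of 14 tested NF-kB and chemokine genes none was called by edgeR or DESeq2, whereas 5 had an unadjusted p under 0.05 and limma-voom called 4. Their lowest values were those of the chemokine Ccl2 (-1.40 ± 0.52, adjusted p = 0.0924) and of Nfkb2 (-1.17 ± 0.41, adjusted p = 0.0713). Nfkb2 was called without Adam17ex replicate 2 (-1.51, adjusted p = 0.0387). Of 13 tested Reg lectins and acute phase genes Reg3d was called, at 201, 212, 276 and 457 CPM in WT and 689, 780, 546 and 623 in Adam17ex (1.24 ± 0.30), and its call was lost without WT replicate 1 (1.01, adjusted p = 0.0905).

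Genes of calcium signalling, the pathway through which cerulein acts, gave some of the widest gaps. Of 24 tested 5 rose and 1, Nfatc1 (above), fell, where 5.85% of all genes rose and 3.85% fell. Rcan1, an inhibitor of calcineurin that is itself induced by calcineurin and NFAT, was at 130, 78.6, 100 and 104 CPM in WT and at 711, 691, 654 and 856 in Adam17ex (2.81 ± 0.18, adjusted p = 3.71e-10). PBS means were 15.3 ± 2.39 and 15.5 ± 2.56 CPM, so Rcan1 was above PBS in both genotypes. The catalytic subunit Ppp3ca of calcineurin was at 67.8, 63.1, 62.3 and 62.0 CPM in WT and at 100, 149, 144 and 158 in Adam17ex (1.11 ± 0.17). Cckar, the receptor that cerulein binds, was at 19.9, 21.0, 25.1 and 20.7 CPM in WT and at 49.6, 155, 112 and 142 in Adam17ex (2.44 ± 0.30, adjusted p = 1.12e-05). Its PBS means were 361 ± 59.6 in WT and 215 ± 65.5 in Adam17ex, so the receptor transcript was below PBS in both genotypes and lowest in WT. The calcium pump of the ER, Atp2a2, rose by 0.96 ± 0.20.

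Some acinar genes were higher in Adam17ex. All 30 tested digestive enzymes had values above 0, with a median of 0.44, and 6 rose (20% of the list, against 5.85% of all genes). Rnase1 was at 4440, 5930, 4200 and 5610 CPM in WT and at 10300, 13300, 10200 and 12600 in Adam17ex (1.24 ± 0.22, adjusted p = 0.000651). Clps, the cofactor of lipase, was at 9070 ± 1960 and 18900 ± 1910 CPM (1.09 ± 0.22). The other 4, namely Try10, Pnliprp2, Cpb1 and Cpa1, rose by 0.70 to 0.86, and each of these 4 calls was lost in 4 to 7 of the 8 fits that left out 1 library. Amylase (Amy2a5) was at 26200, 35200, 21600 and 22800 CPM in WT and at 30600, 36200, 33400 and 28000 in Adam17ex, with overlap (0.26 ± 0.23, adjusted p = 0.548). The count of enzymes called was 2 without WT replicate 1, WT replicate 3, Adam17ex replicate 2 or Adam17ex replicate 4, and 3 without WT replicate 4, so that with any of the first 4 left out the share of enzymes called was near that of all genes. Of 16 granule and exocytosis genes 5 rose, and Rab27b, a GTPase of granule docking, had the largest change, from 5.43, 8.86, 11.5 and 18.2 CPM in WT to 32.7, 16.9, 27.6 and 32.7 in Adam17ex (1.45 ± 0.27), where the highest WT library passed the lowest Adam17ex library. Without WT replicate 1 the count of granule genes was 1, and without WT replicate 3 or Adam17ex replicate 2 it was 3. Among 11 tested acinar transcription factors 2 rose, Foxa3 by 0.98 ± 0.21 and Nr5a2 by 0.79, and Foxa2 fell by 1.23 ± 0.24. The call of Nr5a2 was lost in 5 of the 8 fits that left out 1 library (adjusted p 0.0614 to 0.148).

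Other genes with large rises have less related roles. Pkdcc, a secreted tyrosine kinase, was at 7.24, 6.65, 10.0 and 4.13 CPM in WT and at 59.1, 70.2, 73.2 and 64.0 in Adam17ex (3.13 ± 0.28, adjusted p = 6.71e-08), with PBS means of 6.23 and 4.86. The focal adhesion scaffold Nedd9 rose from 7.86 ± 3.37 to 46.3 ± 11.3 CPM, the galactosyltransferase B4galt4 from 11.3 ± 3.94 to 66.4 ± 18.8, and Gpcpd1, a phosphodiesterase of glycerophosphocholine, from 10.3 ± 2.34 to 50.7 ± 10.5. The clock-linked repressor Bhlhe40 rose by 1.99 ± 0.25 and the nuclear receptor Rora by 1.23 ± 0.22. They were the 2 called among 16 clock genes, of which 9 were called under PBS, 6 higher and 3 lower in Adam17ex.

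**Figure D3:**
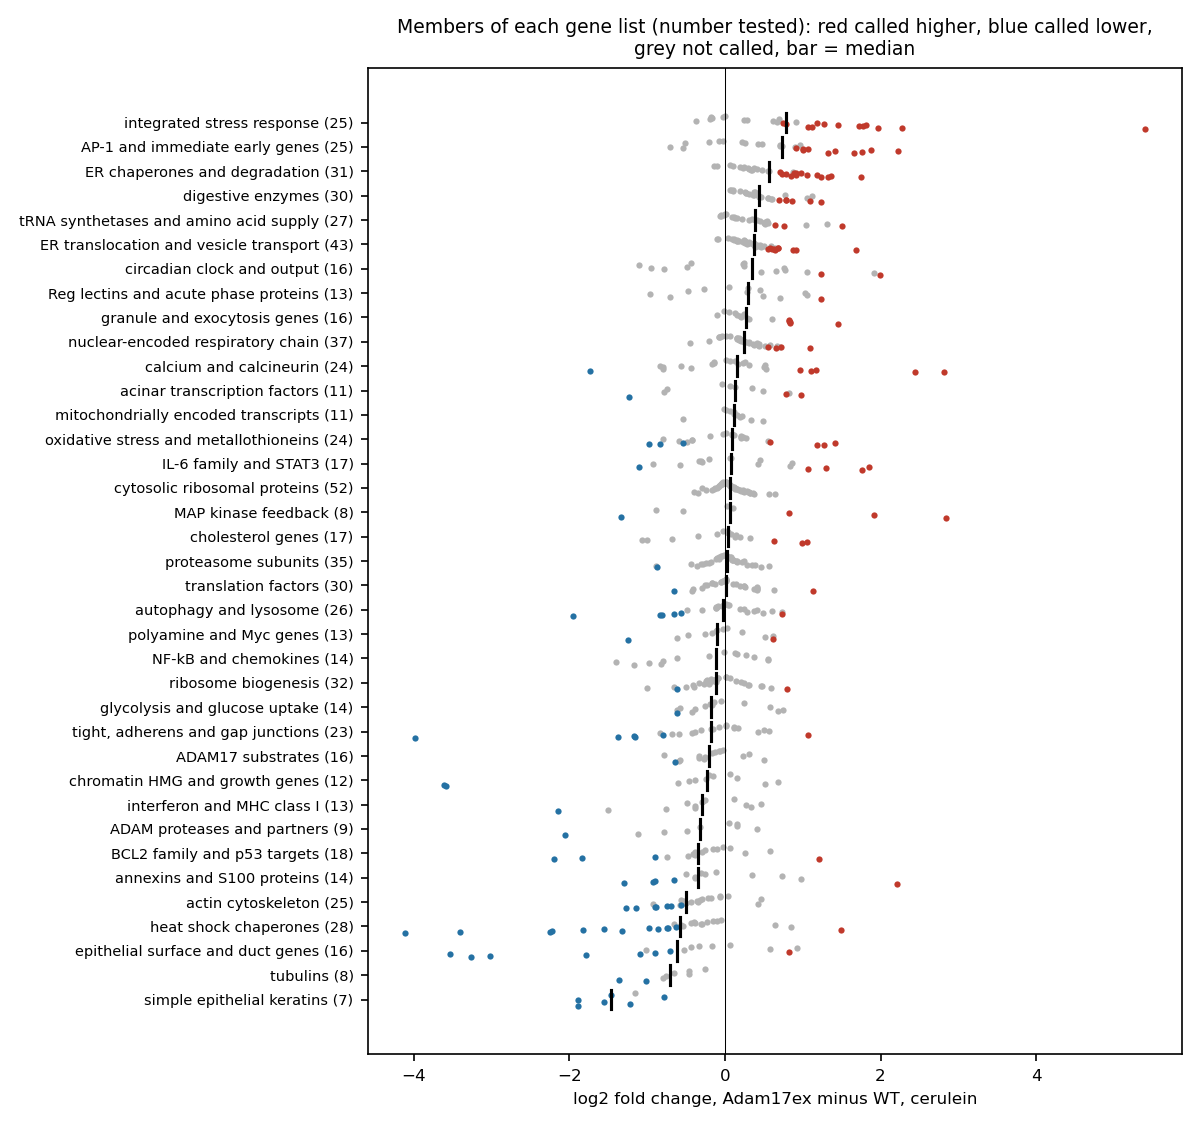
Log2 fold changes, Adam17ex minus WT under cerulein, of the tested members of the pathway lists with 7 or more tested genes (cell type markers left out), ordered by median (black bar). Lists for keratins, tubulins, duct genes and heat shock chaperones have the lowest medians among the lists shown, and the integrated stress response has the highest of them, at 0.79.

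None of 52 tested cytosolic ribosomal protein genes of the list was called by edgeR, DESeq2 or limma-voom (median 0.06), and 3 had an unadjusted p under 0.05. The list does not hold Rpl34 and Rpl29, which edgeR called under cerulein at 1.83 and -1.43. Of 11 mitochondrially encoded transcripts none was called by edgeR (median 0.12), 1 had an unadjusted p under 0.05, and DESeq2 and limma-voom called 1 each. Of 35 proteasome subunits 1 was called, of 30 translation factors 2 and of 32 ribosome biogenesis genes 2, against 9.70% of all genes. Over all tested genes, 1938 had an unadjusted p under 0.05.

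Under PBS the genotypes differed in 112 of the 8236 genes (1.36%), 52 higher (0.631%) and 60 lower (0.729%) in Adam17ex. The 2 comparisons share no library. They had 11 called genes in common, which is 1.38% of the cerulein calls and 9.82% of the PBS calls. In 3 of them the direction was the same. The stress-responsive nuclear RNA Neat1 was higher under PBS (1.12 ± 0.21) and under cerulein (0.93 ± 0.20), where it was at 2680, 3710, 2620 and 2730 CPM in WT and 5780, 5890, 3830 and 5830 in Adam17ex. Jun was higher by 1.68 ± 0.41 and 1.07 ± 0.31, and Rpl29 lower by -2.47 ± 0.62 and -1.43 ± 0.46. The other 8 went opposite ways. The oxidase Ero1lb, the genes Arhgdig and Arhgef10l, the ferritin light chain Ftl1, the ciliary gene Ift20 and the pseudogene Rps15a-ps2 were lower under PBS and higher under cerulein. Ero1lb, for example, differed by -1.21 ± 0.24 (adjusted p = 0.018) under PBS and by 1.32 ± 0.24 under cerulein. Zyx and the ER membrane protein Rtn4 were higher under PBS (1.31 ± 0.30 and 1.19 ± 0.26) and lower under cerulein (-1.14 ± 0.19 and -0.69 ± 0.19). The cerulein calls of Jun, Ftl1 and Rps15a-ps2 were each lost in 6 of the 8 fits that left out 1 library, and those of Rpl29 and Ift20 in 7. Rtn4 lost its call without WT replicate 1 and without Adam17ex replicates 1 or 4 (adjusted p 0.0525 to 0.0902), and Arhgef10l without WT replicate 1 (0.91, adjusted p = 0.108). The interaction of genotype and treatment was called for 496 genes (6.02%). In the PBS groups sex and genotype were unevenly combined, with 0 of 4 males in WT and 2 of 4 in Adam17ex. Depth was uneven too. Adam17ex PBS replicates 1 to 3 held 455547 to 492878 UMIs, against 859573 or more in every other library. Their share of ribosomal RNA was 7.84% to 9.02%, against 3.2% in replicate 4 and 2.02% to 3.79% in WT PBS. How far this lowered the number of PBS calls was not tested.

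**Figure D4:**
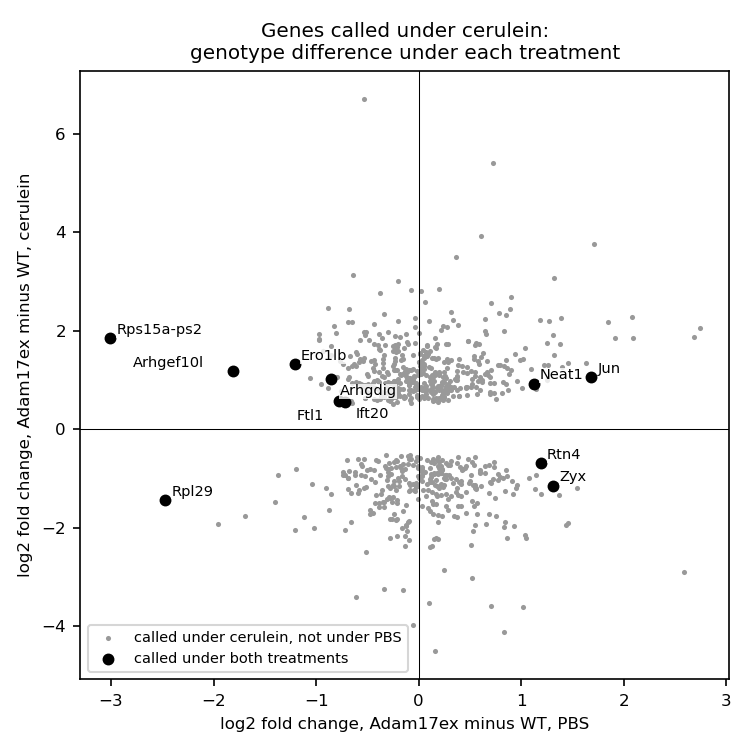
Log2 fold changes, Adam17ex minus WT, under PBS (horizontal axis) and under cerulein (vertical axis) for the 799 genes called under cerulein. Black points with names are the 11 genes called under both treatments, of which 3 have the same direction and 8 the opposite.

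Some genes that differed most varied between libraries within a group, and they were picked out after their values were seen. A set of 13 secreted or surface genes of mucous epithelium, among them Tff1, Gkn1 and Sprr2a1, had all of its 13 members called higher in Adam17ex under cerulein. Their summed level, in CPM without TMM scaling, was 415, 432, 502 and 443 in WT and 915, 2260, 2450 and 1050 in Adam17ex, against 672 to 759 in WT PBS and 473 to 1090 in Adam17ex PBS libraries. Replicates 2 and 3, the males, were the high libraries of Adam17ex under cerulein. The male of WT cerulein, replicate 1, was the lowest of its group at 415. Among Adam17ex PBS libraries a female, replicate 4, was the highest at 1090. Tff1, a trefoil peptide of mucus, was at 109, 111, 115 and 105 CPM in WT and at 267, 736, 671 and 264 in Adam17ex (1.90 ± 0.25, adjusted p = 2.09e-05). Gkn1, known from the stomach lining, was at 49.7, 57.6, 54.4 and 47.9 CPM in WT and at 103, 308, 252 and 97.4 in Adam17ex, and Sprr2a1 rose by 2.20 ± 0.34. For every 100 UMIs of Tff1 there were 36.9 to 59.1 of Gkn1 in all 16 libraries. Beside Gkn1, 6 further stomach and intestine markers were grouped after their values were seen to be near 0, namely Atp4a, Pgc, Cblif, Muc5ac, Tff3 and Muc2. Together these 6 had 14 UMIs in the 8 cerulein libraries, a low total that follows from how they were picked. In Adam17ex cerulein replicate 2 alone Gkn1 had 347 UMIs and Tff1 828. Gkn2, Gkn3 and Ctse, also in the set of 13, had 207, 110 and 68 UMIs there. Whether other tissue taken along moved the set of 13 genes was not tested.

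Trbc1, a constant segment of the T cell receptor beta locus (chr6:41538218-41539881), was at 4.52, 9.97, 12.2 and 2.48 CPM in WT and at 21.1, 101, 96.0 and 75.6 in Adam17ex (3.07 ± 0.43, adjusted p = 4.30e-05). It was the only one of 14 T cell and NK cell markers in the table with enough counts to be tested. Summed over the 14, in CPM without TMM scaling, the markers were at 14.8, 35.5, 23.1 and 17.4 in WT and at 21, 94.1, 111 and 84 in Adam17ex. Trbc1 made up most of the sum in Adam17ex, so the rise of the sum is largely that of 1 gene. Whether T cell numbers differed was not tested. Gm37527, a predicted gene at chr6:41692640-41696186 in the same region as Trbc1, was at 0.904, 0, 0 and 0.827 CPM in WT and at 83.3, 38.2, 64.8 and 45.0 in Adam17ex. Gm50432 (chr19:3205607-3206258) split the WT PBS group. It was at 5.43, 6.65, 4.30 and 8.27 CPM in WT cerulein and 67.5, 92.4, 87.6 and 110 in Adam17ex cerulein libraries, whereas the WT PBS libraries were at 7.05, 7.45, 107 and 116. Rpl34 was at 39.8, 23.3, 46.6 and 261 CPM in WT and at 238, 299, 251 and 292 in Adam17ex under cerulein, so WT replicate 4 lay with the other genotype, and its call was lost without WT replicate 1 (1.52, adjusted p = 0.122) or WT replicate 3 (1.58, adjusted p = 0.0576). Ribosomal protein genes have many near-identical pseudogenes that can take up or lend reads.

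**Figure D5:**
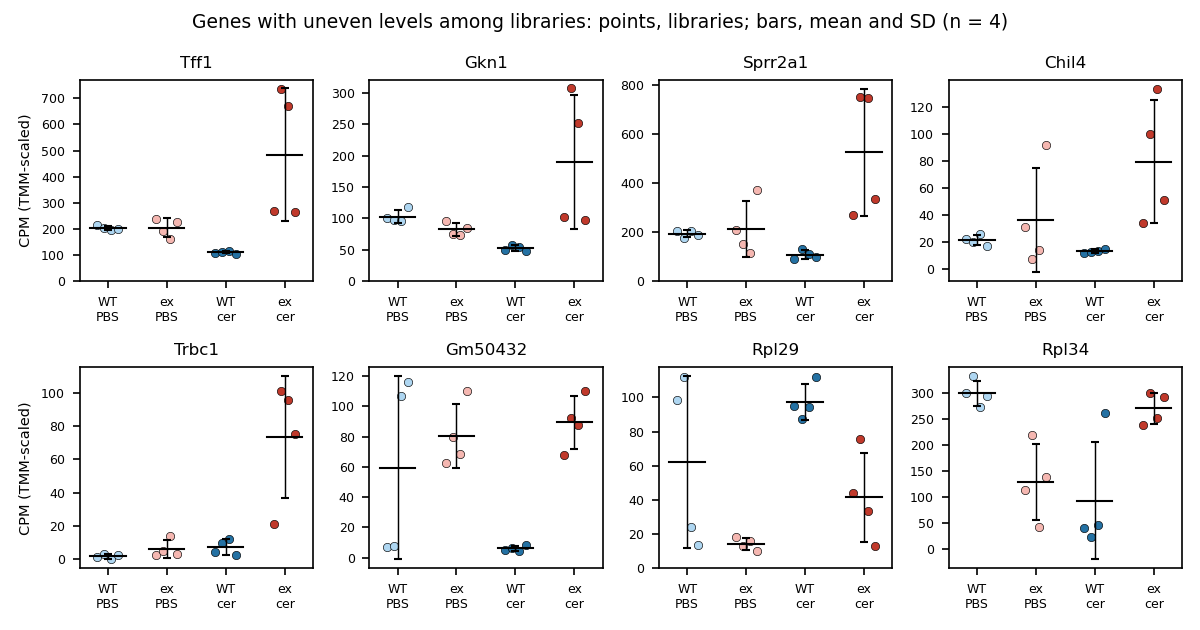
Levels of 8 genes in TMM-scaled CPM on linear axes, with one point per library, and mean and SD of the 4 libraries of each group (ex, Adam17ex; cer, cerulein). Gm50432 and Rpl29 fall into separate levels within WT PBS, and Rpl34 has 1 high WT cerulein library.

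Markers of the other cell types in the tissue were compared between the cerulein groups. None of 16 tested islet, 13 fibroblast and stellate, 8 endothelial, 8 B and plasma cell, 9 adipocyte, 5 erythroid or 2 mesothelial markers was called by edgeR, DESeq2 or limma-voom. At an unadjusted p under 0.05 there were 1 islet, 4 fibroblast, 2 endothelial, 2 adipocyte and 1 erythroid marker, and 0 of the others. Median log2 fold changes were 2.55 for adipocyte, 1.45 for erythroid and 0.31 for endothelial markers, with every tested member above 0. They were 0.52 for fibroblast markers, 12 of 13 above 0, and -0.36 for islet markers, 13 of 16 below 0. B and plasma cell markers gave 0.24 and mesothelial markers 0.02. With 1 library left out the adipocyte median ranged from 0.66 to 3.02. Sums over markers are given in CPM without TMM scaling. Summed macrophage markers were 233 to 346 CPM in WT and 141 to 264 in Adam17ex, and 1 of 9, Cd14, was called lower, at 42.6 ± 9.10 and 16.8 ± 8.47 CPM. That call was lost without any 1 of 6 libraries (adjusted p 0.0696 to 0.238). Neutrophil markers were too low to test, with summed levels of 1.06 to 17.7 CPM in WT and 5.42 to 33.5 in Adam17ex. Adam17ex replicate 3 had more adipocyte RNA, 693 CPM over 13 markers against 106 to 150 in the other 7 cerulein libraries, and more erythroid RNA, 9810 CPM against 582 to 2910. Without that library 644 genes were called, 613 of them among the 799. The part of these markers in the differences above was not tested. Acinar markers summed to 129000 to 153000 CPM in WT and 149000 to 163000 in Adam17ex.

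Genes beside the Adam17 locus were counted separately. Within 10 Mb of Adam17 on chromosome 12, 31 other genes were tested and 3 were called under cerulein (9.68%, against 9.70% of all genes). Pdia6 and the pseudogene Gm9847 were higher and the phosphatidate phosphatase gene Lpin1 lower. Gm9847 was at 0, 1.11, 2.15 and 3.31 CPM in WT and at 16.9, 25.8, 25.2 and 29.3 in Adam17ex (3.77 ± 0.49). Lpin1 was at 14.3 ± 4.41 and 4.25 ± 1.89 CPM (-1.75 ± 0.41), and lost its call without WT replicate 1 (-1.42, adjusted p = 0.091). Under PBS 2 of the 31 genes were called (6.45%, against 1.36% of all genes). Within 5 Mb 2 of 15 genes were called under cerulein (13.3%) and 1 under PBS (6.67%). Whether position on the chromosome played a part was not tested.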

How the data were processed

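Pancreatic RNA of 16 mice was sequenced from the poly(A) tail with a 10 bp UMI, per the labels' protocols. The deposited file holds raw UMI counts per gene, whole numbers with no normalization by the authors, for 24019 genes. Coordinates are those of the file, and the build, GRCm38, is from the submitters' processing notes, which also list edgeR 3.36.0, limma 3.50.0 and R 4.1.2. For the aligner and UMI collapsing, the tool is not given in the sources used here. Counts were analysed with edgeR 4.0.16 in R 4.3.3: filterByExpr (minimum count 10) left 8236 genes, TMM factors scaled the libraries, and a quasi-likelihood model with group and sex was fitted to all 16 libraries (11 residual degrees of freedom). The contrast was Adam17ex minus WT under cerulein, and PBS and the interaction were tested alike. The edgeR p-values set each difference against the spread between mice within groups, estimated over all 16 libraries, PBS included.

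Cerulein libraries of one group were further apart than counting error alone gives (chi-square per degree of freedom 3.23 to 5.78), so each library counted once. The comparison, its lists and the rule for named genes were chosen with earlier results of these data known. The rule takes Adam17, the 15 highest and 15 lowest changes (called genes, mean count 10 or more, officially named), up to 5 members per list by p, and called genes near Adam17. Other genes were added after their values were seen. A gene that the rule names is not reported here. Promoters are from RefSeq (GRCm38.p6), with an entry for 5966 of the tested genes. Alternatives were other scalings, filters, covariates and tools (DESeq2 1.42.0, limma 3.58.1) and leaving out each library.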

Additional observations from a re-analysis of the deposited data

Results flagged for a closer look

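Among 30 genes and 5 library measures, screened in 70 groups of 4 libraries, 5 values, from 4 libraries, stood apart from the rest of their group by Dixon's criterion, where chance gives about 1 in 20 groups. WT cerulein replicate 1 had 83.2 CPM of Hspa1b against 187 to 208 in the rest. WT cerulein replicate 3 had 173 CPM of Hmga1b against 226 to 233, and 97.4 CPM of Hsp25-ps1 against 74.2 to 76.9. Among Adam17ex cerulein libraries, replicate 3 had 0 CPM of Nrip3 against 2.72 to 3.55, and replicate 4 had 7.49 CPM of Lgalsl against 27.6 to 32.0.

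For 21 of these genes the genotype difference under cerulein departed from that under PBS by edgeR's test of the interaction. Over all tested genes the share was 6.02%. Most of the screened genes were picked for a large difference under cerulein, which is part of the interaction, so a high count follows from the choice. The values below are the difference between both log2 fold changes. It was -4.94 for Hspa1b (adjusted p = 0.000117), -2.80 for Hspa1a (0.0476), -2.16 for Hspb1 (0.0011) and -2.50 for its pseudogene Hsp25-ps1 (0.0217). It was -4.64 for Hmga1 (8.86e-05), -4.30 for Hmga1b (2.37e-05), -3.11 for Ceacam1 (1.44e-06) and -2.91 for Ceacam2 (0.0176). Cldn4 gave -3.92 (0.000632), Slc26a9 -3.54 (0.00254) and Cdkn1c -2.84 (0.037). On the higher side the values were 4.67 for Fgf21 (0.000162), 3.77 for Pkdcc (0.000259), 3.34 for B4galt4 (0.000453) and 3.21 for Lgalsl (0.0222). They were 3.12 for Cckar (5.16e-05), 2.92 for Dusp8 (0.0041) and 2.79 for Rcan1 (4.04e-05). They were 2.69 for the non-coding Dleu2 (0.000625), 2.67 for Hbegf (0.00491) and 1.48 for Gpcpd1 (0.0383).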

How the results depend on the processing

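Of 165 called named genes 89 kept their call in every one of 20 alternatives that tested them, and 0 reversed. All alternatives but 1 were listed in advance; the exception, no sex term together with leaving out WT cerulein replicate 1, was chosen after seeing the data. It called 568 genes, with 9 ER chaperones, 4 ER translocation genes, 2 digestive enzymes and 2 granule genes higher and 3 autophagy genes lower. Other scalings called 803 to 812 genes, and the share called higher ranged from 55.0% to 64.1% over all alternatives. The 8 cerulein libraries alone gave 963, DESeq2 662 and limma-voom 878. Both DESeq2 and limma-voom called 10 digestive enzymes. Without a filter 3 ER translocation genes were higher and 3 autophagy genes lower, and with a minimum count of 30, 6 immediate early genes were higher. In female libraries only, 273 genes were called, 175 higher and 98 lower. Lower there were 7 heat shock, 3 actin and 3 autophagy genes, and higher were 3 ER chaperones, 1 ER translocation gene, 3 calcium genes, 2 digestive enzymes and 1 granule gene. The cause was not tested.

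Leaving out 1 library gave 402 to 675 called genes, 256 to 411 higher and 146 to 273 lower. List counts ranged from 4 to 7 for actin, 6 to 14 for ER chaperones, 3 to 7 for ER translocation, 2 to 7 for enzymes, 1 to 5 for granule genes and 3 to 4 for autophagy.

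With the replicate number as a block 749 genes were called, 698 of them shared. Same-numbered libraries correlated at -0.03, 0.00, 0.00 and 0.12, so the numbers were not taken as pairs. With 1 UMI worth up to 1.16 CPM, differences among genes of a few CPM are limited by depth.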
